A study of Homo sapiens with 8 samples.

Results

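The transcription factors and the splicing regulator that hold squamous and epithelial identity were followed through H3K9me3, a histone mark of silenced chromatin, at their promoters in SiHa cells. The members were TP63, SOX2, GRHL2, GRHL3, OVOL1, ELF3, EHF, TFAP2A, KLF4 and ESRP1, and every promoter window that the deposited tables list under one of these 10 names was taken. That gave 12 of 38157 windows, from 7 of the 10 genes: 3 for OVOL1, 2 each for TP63, TFAP2A and ESRP1, and 1 each for GRHL2, KLF4 and EHF. SOX2, GRHL3 and ELF3 matched no window name and are not analysed here. Windows were matched by gene name only, and the members were chosen with earlier results of these data known.

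SiHa is an established cervical squamous carcinoma line, used at passages in the range of 18 to 25 per the labels, and all groups came from it, with no genetic change or drug named in the labels. Cells were placed in transwell inserts, whose porous membrane motile cells can cross, and after 10 h the cells that had crossed (migrated) and those that had not (non-migrated) were collected. From each fraction a library of sonicated chromatin without antibody (input) and a library precipitated with an antibody to H3K9me3 were sequenced in 2 paired replicate sets, which gave 4 groups of n = 2. Set 2 is a second biological replicate made with another library kit than set 1, so kit and replicate set cannot be told apart. A fraction is a mixture of cells, so fewer cells with the mark and less mark per cell cannot be told apart in any value below. The series asks about migratory cells with a chromatin state low in SUV39H1, an enzyme that writes H3K9me3.

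Squamous epithelium is built by a small circuit of factors. TP63 is the master regulator of stratified epithelium and acts in squamous tumours together with SOX2. TFAP2A and KLF4 act beside and after it in keratinocyte differentiation. GRHL2 and its relative GRHL3, OVOL1, and the ETS-family factors ELF3 and EHF keep cells epithelial by switching on junction genes and holding back ZEB1 and other drivers of mesenchymal change, while ESRP1 is an RNA-binding protein that sets the epithelial splice forms of CD44, FGFR2 and other transcripts. H3K9me3 is laid over repeats and over genes of other lineages, where it shuts out such factors.

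To show the kind of promoter the windows cover, the 250 bases before the start of 3 genes are printed from RefSeq (GRCh38.p14), 5′ to 3′ on the strand of the gene, with each CpG dinucleotide in capitals. They were matched by gene symbol. The count windows are in hg19, so whether each stretch lies inside its window was not determined. TP63 and TFAP2A are shown because their windows had the lowest H3K9me3 of the members, and KLF4 because its level was near the median of all promoters.
TP63 (GRCh38.p14 chr3:189631139-189631388, plus strand): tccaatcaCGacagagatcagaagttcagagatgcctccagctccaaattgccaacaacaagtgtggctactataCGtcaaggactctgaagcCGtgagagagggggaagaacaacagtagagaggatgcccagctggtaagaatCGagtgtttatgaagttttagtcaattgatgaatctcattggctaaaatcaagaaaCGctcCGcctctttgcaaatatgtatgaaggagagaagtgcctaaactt
TFAP2A (GRCh38.p14 chr6:10419660-10419909, minus strand): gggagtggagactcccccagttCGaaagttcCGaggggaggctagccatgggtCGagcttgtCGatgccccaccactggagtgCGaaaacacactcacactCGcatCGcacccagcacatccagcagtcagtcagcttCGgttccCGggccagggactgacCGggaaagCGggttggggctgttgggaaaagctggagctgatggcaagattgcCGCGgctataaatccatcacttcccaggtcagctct
KLF4 (GRCh38.p14 chr9:107489770-107490019, minus strand): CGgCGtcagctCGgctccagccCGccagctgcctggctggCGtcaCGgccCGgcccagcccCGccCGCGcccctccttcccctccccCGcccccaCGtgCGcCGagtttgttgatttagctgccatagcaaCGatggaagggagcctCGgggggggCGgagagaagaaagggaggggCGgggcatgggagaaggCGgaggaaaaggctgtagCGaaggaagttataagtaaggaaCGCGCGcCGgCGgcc

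The 3 promoters differ in base composition. The TP63 stretch has 44% G and C with 6 CpG, the TFAP2A stretch 59.6% with 13 CpG, and the KLF4 stretch 69.2% with 25 CpG, against a median of 58% and 11 CpG over 35114 RefSeq stretches of the same length. On both strands, the KLF4 stretch holds 4 GC boxes (GGGCGG, found in 42.6% of all stretches) and 1 copy of GCCNNNGGC, the palindrome that AP-2 proteins such as TFAP2A bind (19.8%). Neither the TP63 nor the TFAP2A stretch holds either motif. The TFAP2A stretch holds 1 TATAAA (10.7% of all stretches), and none of the 3 holds CACCTG, the E-box read by ZEB and SNAI repressors (17.5%). These matches describe letters in a window and not bound sites. TFAP2A has a further entry in the RefSeq table, chr6:10412392-10412641, with 71.2% G and C, 15 CpG and no TATAAA, and EHF has 2 entries, with 4 and 2 CpG. GRHL2, ESRP1 and OVOL1 are named only.

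The deposited values were turned back into read counts. Set 1 was shallow: its libraries held 88028 to 684949 reads in all windows, against 984835 to 1729061 in set 2. For H3K9me3 of migrated cells, the median window had 1 read in set 1, where 30.5% of windows had none, against 17 reads in set 2. A library without reads in a window allows up to 3, which is 28.9 RPM (reads per scaled library size of 1e6) in the migrated and 17.0 in the non-migrated H3K9me3 library of set 1, but 3.25 and 2.68 in set 2. Intervals and limits cover counting error only. Levels are log2 ratios of H3K9me3 to input with the SE of the limma fit and n = 2 sets, taken as the mean of both fractions unless stated, and a call means a Benjamini-Hochberg adjusted p under 0.05 over all 36440 windows tested. The scale is relative: 0 is the centre to which the libraries were scaled, and the median of all windows lay at -0.35. All 12 member windows passed the filter on low counts, each spans 2100 bases, and the strand given with each is that of the annotated start and not of the reads.

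**Figure D1:**
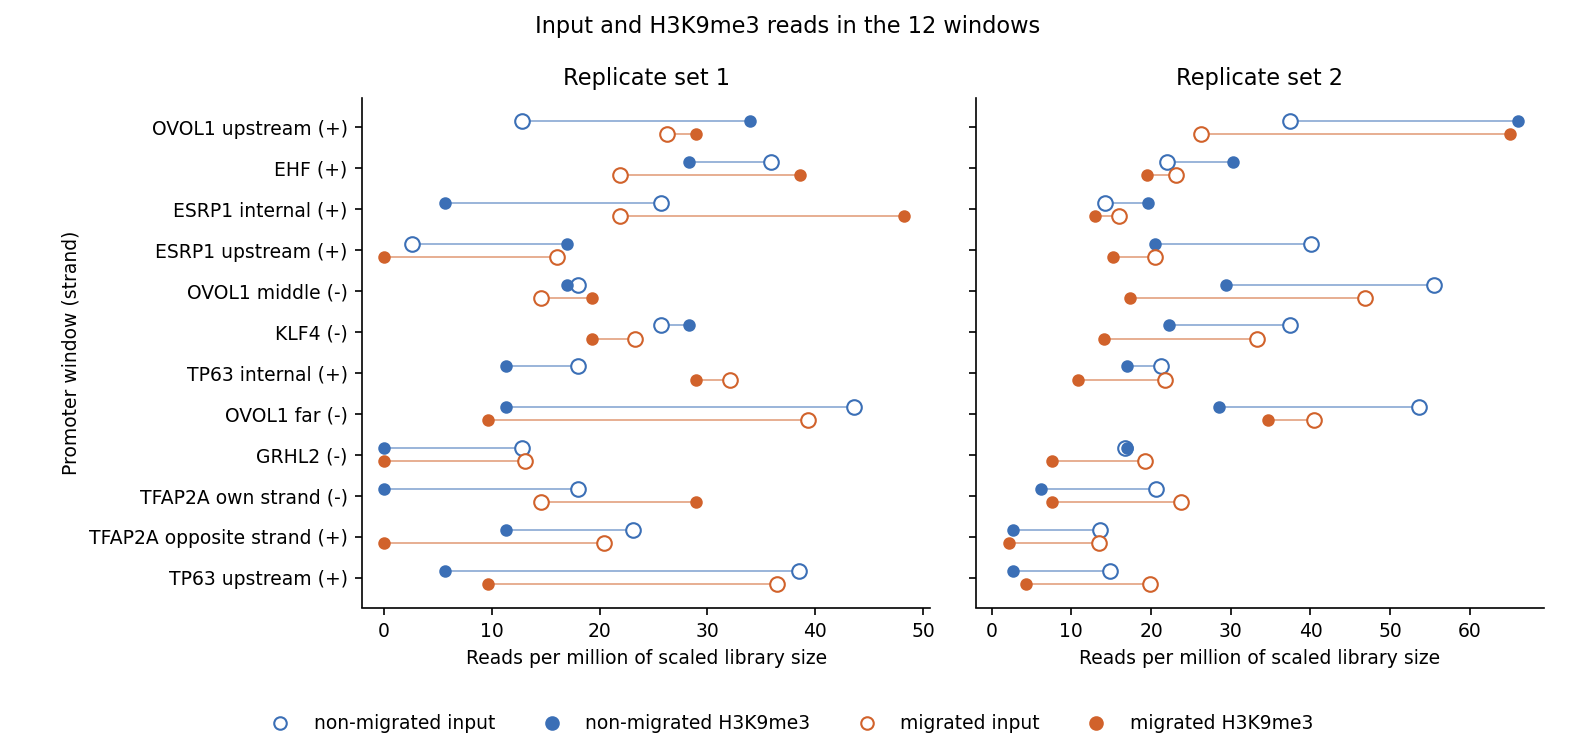
Reads scaled to library size (RPM) in each of the 12 windows, by replicate set, with open circles for input, filled circles for H3K9me3, blue for non-migrated and orange for migrated cells. The upstream OVOL1 window is the only one with H3K9me3 above input in all 4 pairs of libraries, and the 2 lowest rows, the upstream TP63 and the opposite-strand TFAP2A window, have H3K9me3 below input in all 4.

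The members were spread over most of the range of promoters and were not uniformly low or high. In the mean of both fractions 5 of 12 windows (41.7%) were called lower than the centre, where 35.1% of all tested windows were, and 1 of 12 (8.33%) was called enriched, where 15.8% of all were. The member median was -0.46 against -0.35 for all windows. Of the 12 values 10 were negative, and so were most of all tested windows, whose median lay below 0. The lowest value was -1.96 (upstream TP63) and the highest 0.89 (upstream OVOL1), while the 10th and 90th percentiles of all windows lay at -2.36 and 1.07. These shares lie near the background and set the members apart from other promoters in neither direction.

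TP63 had the lowest level of all members at its upstream window and a middling level at its internal window. The upstream window (hg19 chr3:189347205-189349305, plus strand, start position 189349205) held 3 H3K9me3 against 23 input reads (non-migrated) and 4 against 31 (migrated) in set 2. In set 1 the same comparison gave 1 against 15 and 1 against 25. H3K9me3 was below input in 4 of 4 pairs, and the ratio after scaling was 0.18 (exact 95% interval 0.03 to 0.60) in non-migrated and 0.22 (0.06 to 0.62) in migrated cells of set 2. The fit gave -1.96 ± 0.44, a ratio of 0.26 (limma, adjusted p = 0.00049), at percentile 16 of all windows. It was called in each fraction as well, at -2.2 ± 0.64 in non-migrated cells (adjusted p = 0.0093) and -1.71 ± 0.60 in migrated cells (adjusted p = 0.023). The call in the mean of both fractions held under all 17 alternatives tried, with values from -2.91 to -1.33.

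The internal TP63 window (hg19 chr3:189545711-189547811, plus strand) starts about 198.5 kb further along the gene. It held 19 against 33 reads (non-migrated) and 10 against 34 (migrated) in set 2, and 2 against 7 and 3 against 22 in set 1. H3K9me3 lay below input in 4 of 4 pairs here too, but by less: the fit gave -0.49 ± 0.40 and passed no threshold (adjusted p = 0.31). TP63 is known to make long and N-terminally shortened forms from separate promoters. Whether the 2 windows cover the starts of both forms, of 1 or of neither was not determined.

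TFAP2A, which encodes the AP-2 alpha factor of surface ectoderm and keratinocytes, was next lowest. Its window on the minus strand, the strand of the gene (hg19 chr6:10419792-10421892, start position 10419892), held 7 against 32 reads (non-migrated) and 7 against 37 (migrated) in set 2. In set 1 it held 0 against 7 and 3 against 10. H3K9me3 was below input in 3 of 4 pairs and above it in the migrated pair of set 1, where 3 reads give a ratio of 1.99 with an exact 95% interval of 0.35 to 7.72. The fit gave -1.27 ± 0.47 (adjusted p = 0.025). That call was lost under 10 of 16 alternatives, with -0.19 (adjusted p = 0.75) when the non-migrated H3K9me3 library of set 1 was left out and -0.37 when the migrated one of set 2 was. Without any 1 of the 4 input libraries the value lay between -1.41 and -0.91, also without a call.

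The TFAP2A window on the opposite, plus strand (hg19 chr6:10407573-10409673) lies about 12.2 kb away. It held 3 against 21 (non-migrated) and 2 against 21 reads (migrated) in set 2, and 2 against 9 and 0 against 14 in set 1. All 4 pairs were below input, and the fit gave -1.87 ± 0.47 (adjusted p = 0.0015), at percentile 17.3 of all windows. This call held in 16 of 16 alternatives (-2.79 to -1.02, the latter with 2 added to each count). By fraction it passed in migrated cells (-2.24 ± 0.69, adjusted p = 0.010), and in non-migrated cells the value was -1.51 ± 0.65 (adjusted p = 0.073). The difference between the fractions itself was not called.

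KLF4, a zinc finger factor of the skin barrier and of pluripotency, sat near the middle of all promoters. Its window (hg19 chr9:110252663-110254763, minus strand, the strand of the gene) held 25 against 58 reads (non-migrated) and 13 against 52 (migrated) in set 2. Set 1 gave 5 against 10 and 2 against 16. The set 2 ratios were 0.60 (0.36 to 0.97) and 0.42 (0.21 to 0.79), both below 1 after scaling, while the set 1 ratios of 1.10 and 0.83 had intervals that span 1. The fit gave -0.44 ± 0.36, at percentile 47.6 of all windows, and was not called (adjusted p = 0.32).

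Among the factors that keep cells epithelial, GRHL2, a grainyhead factor that activates junction genes such as CDH1, has its listed window on the minus strand, opposite to the gene (hg19 chr8:102550222-102552322). How far this window lies from a start of GRHL2 was not determined, so its level may not be that of the GRHL2 promoter. The window held 19 against 26 reads (non-migrated) and 7 against 30 (migrated) in set 2. In set 1 both H3K9me3 libraries held 0 reads, against 5 and 9 in the inputs, which allows ratios of up to 2.41 and 3.36. The non-migrated pair of set 2 stood at the input level (ratio 1.01, 0.53 to 1.90) and the migrated pair below it (0.39, 0.15 to 0.92). The fit gave -1.24 ± 0.45 (adjusted p = 0.022), and the call was lost under 10 of 16 alternatives. Without the replicate set as a block the value was -0.91 (adjusted p = 0.14), and with 2 in place of 0.5 added to each count it was -0.33. Leaving out a library ended the call for the non-migrated H3K9me3 library of set 1 (-0.62, adjusted p = 0.27), for the migrated H3K9me3 library of set 2 (-0.80) and for each of the 4 inputs (-1.29 to -0.90).

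OVOL1, a zinc finger repressor of mesenchymal genes, had the highest and one of the lower windows of the members. The upstream, plus-strand window (hg19 chr11:65552493-65554593, start position 65554493), on the strand that OVOL1 is read from, held 74 against 58 reads (non-migrated) and 60 against 41 (migrated) in set 2. Set 1 gave 6 against 5 and 3 against 18. After scaling, H3K9me3 exceeded input in 4 of 4 pairs, with ratios of 1.76 (1.23 to 2.53) and 2.48 (1.64 to 3.78) in set 2 and of 2.65 (0.67 to 10.96) and 1.10 (0.21 to 3.78) in set 1. The fit gave 0.89 ± 0.35, a ratio of 1.86 (adjusted p = 0.032), at percentile 86.2 of all windows, and this was the single enriched call among the members. In neither fraction alone did it pass (0.79 ± 0.43, adjusted p = 0.16, and 0.99 ± 0.42, adjusted p = 0.056). The call was lost under 5 of 17 alternatives, which include median-of-ratios scaling (0.79), the constants in the deposited values (0.01), a quasi-Poisson model (0.80), and leaving out the migrated input of set 2 (0.88) or the non-migrated input of set 1 (0.61). Without the non-migrated input of set 2 it was 1.61.

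The other OVOL1 windows lie on the minus strand. The middle window (hg19 chr11:65558239-65560339) held 33 against 86 and 16 against 73 reads in set 2 and 3 against 7 and 2 against 10 in set 1. Its fit gave -0.43 ± 0.38 (adjusted p = 0.36). The far window (hg19 chr11:65564590-65566690) held 32 against 83 and 32 against 63 reads in set 2 and 2 against 17 and 1 against 27 in set 1, below input in 4 of 4 pairs, with a fit of -1.07 ± 0.36 (adjusted p = 0.013). So within about 12.1 kb the fitted level ran from an enriched to a lower call. The far call was lost under 7 of 17 alternatives: without the block it was -0.70 (adjusted p = 0.094), with no filter on low counts -0.78, and it also ended without the migrated H3K9me3 library (-0.74), the migrated input (-0.99) or the non-migrated H3K9me3 library (-0.95) of set 1, or the migrated (-0.83) or the non-migrated input (-0.71) of set 2. The far window had the highest input of the members, 1.69 times the median window on average, and GRHL2 the lowest, 0.59 times, and the part of input coverage in these levels was not tested.

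EHF, an ETS factor of glandular and squamous epithelium, stood slightly above the centre. Its window (hg19 chr11:34640640-34642740, plus strand, the strand of the gene) held 34 against 34 reads (non-migrated) and 18 against 36 (migrated) in set 2, and 5 against 14 and 4 against 15 in set 1. After scaling, 2 of 4 pairs lay above input and 2 below, and the fit gave 0.24 ± 0.35 (adjusted p = 0.58), at percentile 67.5.

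ESRP1 has 2 plus-strand windows, about 14.8 kb apart, and neither was called. The upstream window (hg19 chr8:95651302-95653402) held 23 against 62 and 14 against 32 reads in set 2 and 3 against 1 and 0 against 11 in set 1. The input of non-migrated cells in set 1 held a single read there, and the ratio of 6.61 that it gives has an exact 95% interval of 0.53 to 347. The fit gave -0.35 ± 0.49 (adjusted p = 0.57). The internal window (hg19 chr8:95666148-95668248) held 22 against 22 and 12 against 25 reads in set 2 and 1 against 10 and 5 against 15 in set 1, with a fit of -0.07 ± 0.42 (adjusted p = 0.90). Without the non-migrated H3K9me3 library of set 1 the value of the internal window was 0.93, with a call (adjusted p = 0.040).

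Placed in order, the windows ran from the upstream TP63 window through TFAP2A opposite strand, TFAP2A own strand, GRHL2, OVOL1 far, TP63 internal, KLF4, OVOL1 middle, ESRP1 upstream, ESRP1 internal and EHF to OVOL1 upstream. No window differed from the next in this order by more than 1.32 joint SE, the gap between EHF and the upstream OVOL1 window, so the order of neighbours is not resolved. The 5 windows called lower and the upstream OVOL1 window lie on different sides of the centre, and the difference between them was not tested.

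**Figure D2:**
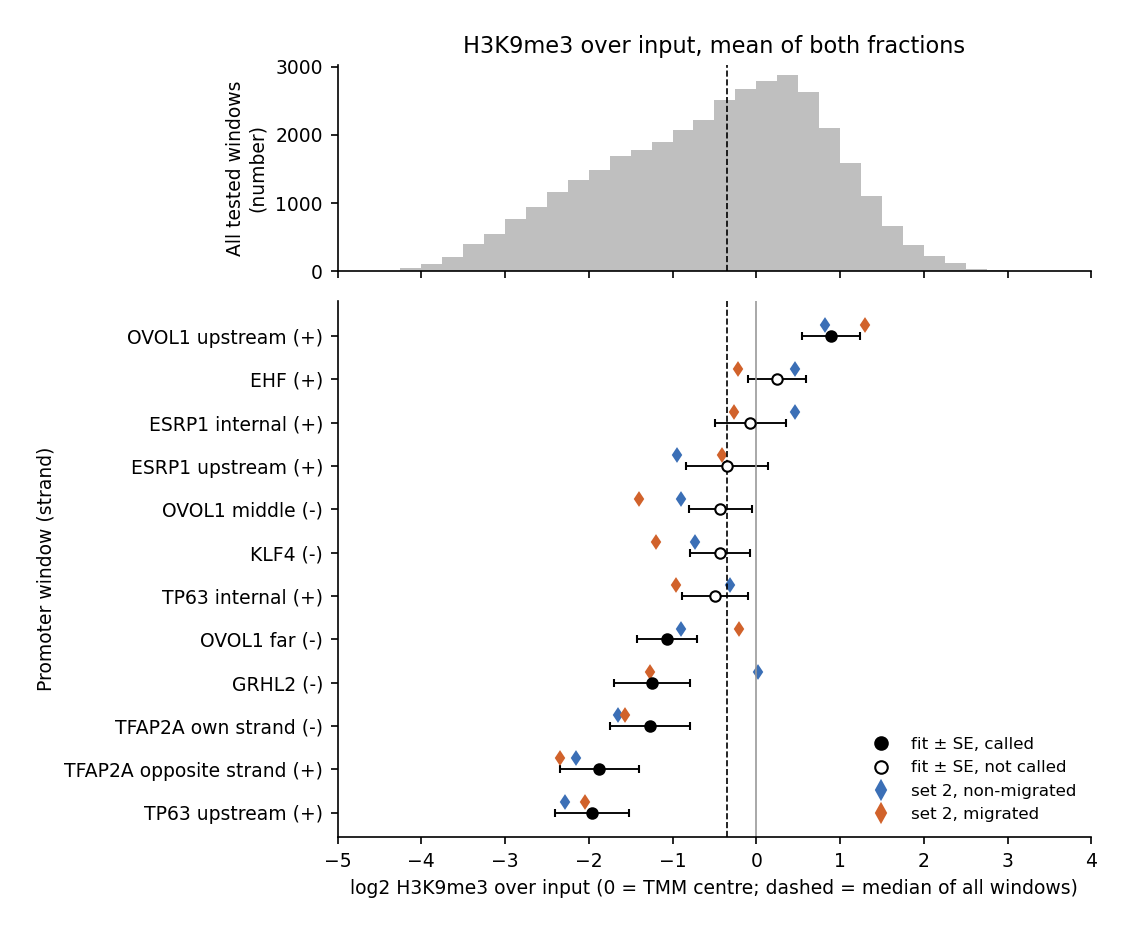
Above, the number of tested windows by log2 of H3K9me3 over input (mean of both fractions), in bins of 0.25. Below, the same quantity for the 12 member windows as the limma fit ± SE, filled where called, with the set 2 values of each fraction as diamonds. The members lie between -1.96 and 0.89, on both sides of the median of all windows at -0.35 (dashed).

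The fractions were compared by the change in log2 of H3K9me3 over input, migrated minus non-migrated. No member window was called in either direction, and neither was any of the 36440 windows (0.0% higher and 0.0% lower in migrated cells by limma). At an unadjusted p under 0.05 there were 0 of 12 member windows, and 620 higher and 656 lower windows among all. The member changes ran from -0.73 ± 0.94 (TFAP2A opposite strand) to 1.31 ± 0.87 (TFAP2A own strand, unadjusted p = 0.14), with 5 positive and 7 negative and a median of -0.24 against -0.01 for all windows. Every adjusted p was 0.9996. The 95% intervals were 1.90 to 3.68 log2 units wide, so that changes of 2-fold in at least 1 direction lie inside each of them.

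The value that stands furthest from 0, that of the TFAP2A own-strand window, rests on the shallow set. H3K9me3 and input reads were 0 and 7 (non-migrated) and 3 and 10 (migrated) in set 1, and 7 and 32 and then 7 and 37 in set 2, which gives changes of 3.91 and 0.09. With either H3K9me3 library of set 2 left out the fitted change was 3.54 in either case and was called, and without those of set 1 it was 0.28 and 0.29. In set 2 the ratios were 0.30 (exact 95% interval 0.11 to 0.70, non-migrated) and 0.32 (0.12 to 0.73, migrated), intervals that overlap almost fully.

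By set, the members moved together in neither direction. In set 2 alone 7 of 12 windows were lower in migrated cells, where 51.2% of all windows were, with values from -1.29 (GRHL2) to 0.69 (OVOL1 far). In set 1 alone, with 0 to 6 H3K9me3 reads in each member window, 4 of 12 were lower. For set 1, and for agreement in sign between the sets, the share of all windows was not determined. The sign was the same in both sets in 5 of 12: upstream TP63 (0.87 in set 1 and 0.23 in set 2), TFAP2A own strand (3.91 and 0.09) and OVOL1 far (0.20 and 0.69) upward, and TFAP2A opposite strand (-1.35 and -0.19) and KLF4 (-0.20 and -0.47) downward. GRHL2, whose set 2 value was the lowest, had 0.80 in set 1, where both H3K9me3 libraries held 0 reads. The upstream OVOL1 window had -1.06 in set 1 and 0.49 in set 2. The fitted changes were -0.72 ± 0.80 for GRHL2 (95% interval -2.28 to 0.84), -0.40 ± 0.62 for KLF4 (-1.62 to 0.82), 0.49 ± 0.87 for the upstream TP63 window (-1.22 to 2.2) and 0.20 ± 0.49 for the upstream OVOL1 window (-0.75 to 1.16).

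The reads of all 12 windows summed give the same picture. In set 2 they held 294 H3K9me3 and 538 input reads in non-migrated cells and 195 and 475 in migrated cells, which is log2 -0.41 and -0.53 of H3K9me3 over input after scaling. In set 1 the sums were 30 and 107 against 24 and 192, or -0.69 and -0.27. In migrated cells the pooled value was thus lower in set 2 and higher in set 1. The counts of calls in each fraction were equal: 3 of 12 windows were lower in non-migrated cells (upstream TP63, TFAP2A own strand and OVOL1 far, against 23.6% of all windows) and 3 of 12 in migrated cells (upstream TP63, TFAP2A opposite strand and GRHL2, against 28.1%). None was enriched in either fraction, where 8.26% and 12.8% of all windows were. These calls by fraction depend on single libraries. Those in non-migrated cells ended when their H3K9me3 library of set 1 or their input of set 2 was left out. Those in migrated cells ended without either migrated input. The number of calls over all windows also moved with the library left out, so this does not set the members apart. A call in 1 fraction only does not show a difference between the fractions, and none of the 12 windows had a called change.

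**Figure D3:**
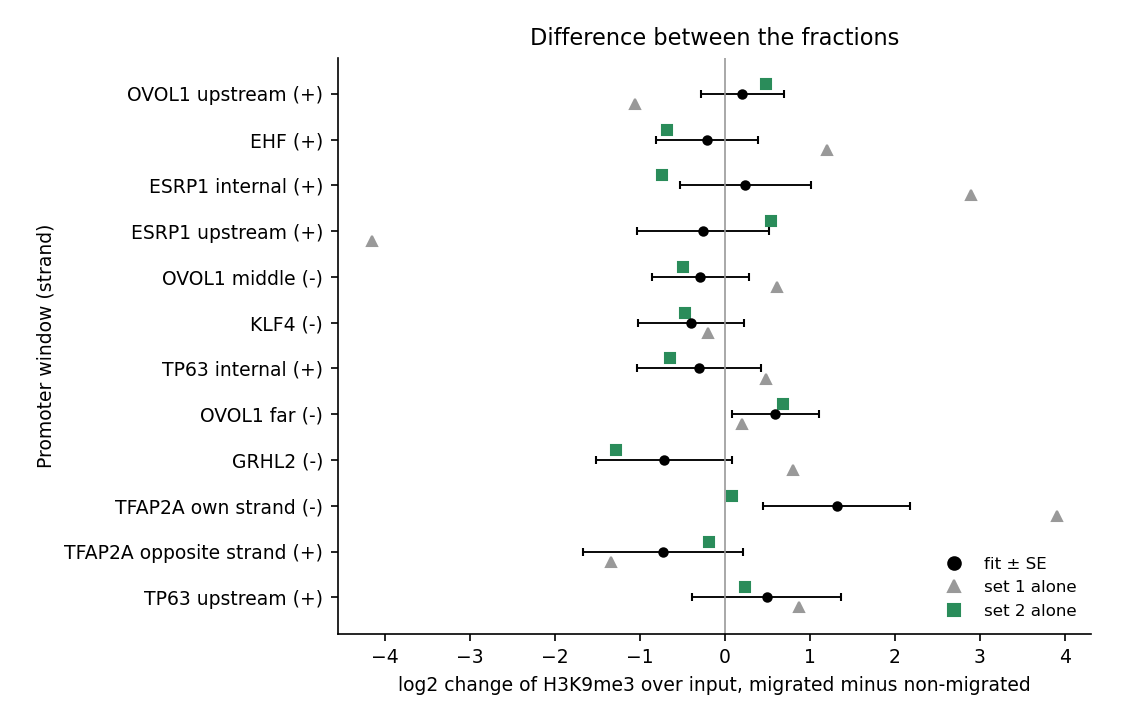
Change in log2 of H3K9me3 over input, migrated minus non-migrated, for the 12 windows in the order of their mean level. Black points show the limma fit ± SE, grey triangles set 1 alone and green squares set 2 alone. The set 1 values run from -4.16 (ESRP1 upstream) to 3.91 (TFAP2A own strand), while those of set 2 stay between -1.29 and 0.69.

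The surroundings of the genes were described from all other windows within 250 kb, in the mean of both fractions. Over all tested windows 35.1% were called lower and 15.8% enriched. Around TFAP2A, 4 of 9 tested windows were called lower, and the nearest of them were RP1-290I10.3 (-1.78 ± 0.46, 6.5 kb from the own-strand window) and the pair of RP1-290I10.8 (-1.17 ± 0.43 and -2.04 ± 0.48). GCNT2, a glycosyltransferase gene 70.7 kb away, was called enriched (1.01 ± 0.39). TP63 had a single tested neighbour, AC078809.1, 45.2 kb from the upstream window and called lower too (-1.29 ± 0.42).

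The window listed under GRHL2 had some neighbours with more H3K9me3. Of 7 tested neighbours 2 were enriched, both windows of KB-1562D12.1, 47.6 and 45.6 kb away (1.5 ± 0.36, adjusted p = 0.00092, and 1.97 ± 0.35, adjusted p = 2.5e-05), and 1 was lower, KB-1930G5.4 (-1.24 ± 0.43). The median of the neighbours was 0.64, while the window listed under GRHL2 stood at -1.24. The KB-1562D12.1 window at 47.6 kb lies on the plus strand, the strand that GRHL2 is read from. Whether it covers a start of GRHL2 was not determined, so these neighbours may not be separate from the gene's own promoter.

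OVOL1 lies among many promoters, and its upstream window stood above most of them. Of 29 tested windows, 21 were called lower, with a median of -1.68 and the lowest value at FIBP (-4.12 ± 0.48). The 2 enriched neighbours were RP11-770G2.2 (0.98 ± 0.33, 41.3 kb away) and a plus-strand window of CFL1, the gene of the actin-severing protein cofilin (1.02 ± 0.32, 46.6 kb). A further CFL1 window, 70.1 kb away, was lower (-1.59 ± 0.38). ESRP1 showed the same contrast without a call of its own: 8 of 9 neighbours of the upstream and 10 of 11 of the internal window were lower, among them Y_RNA (-2.25 ± 0.46) and DPY19L4 (-1.48 ± 0.48).

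Around KLF4 1 of 4 tested windows was lower, that of the DNA repair gene RAD23B (-1.57 ± 0.42), and around EHF 1 of 5, that of the catalase gene CAT (-2.39 ± 0.47). The other neighbours of both lay between -0.15 and 0.41. No neighbour overlaps a member window. The difference between a member and its surroundings was not tested.

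**Figure D4:**
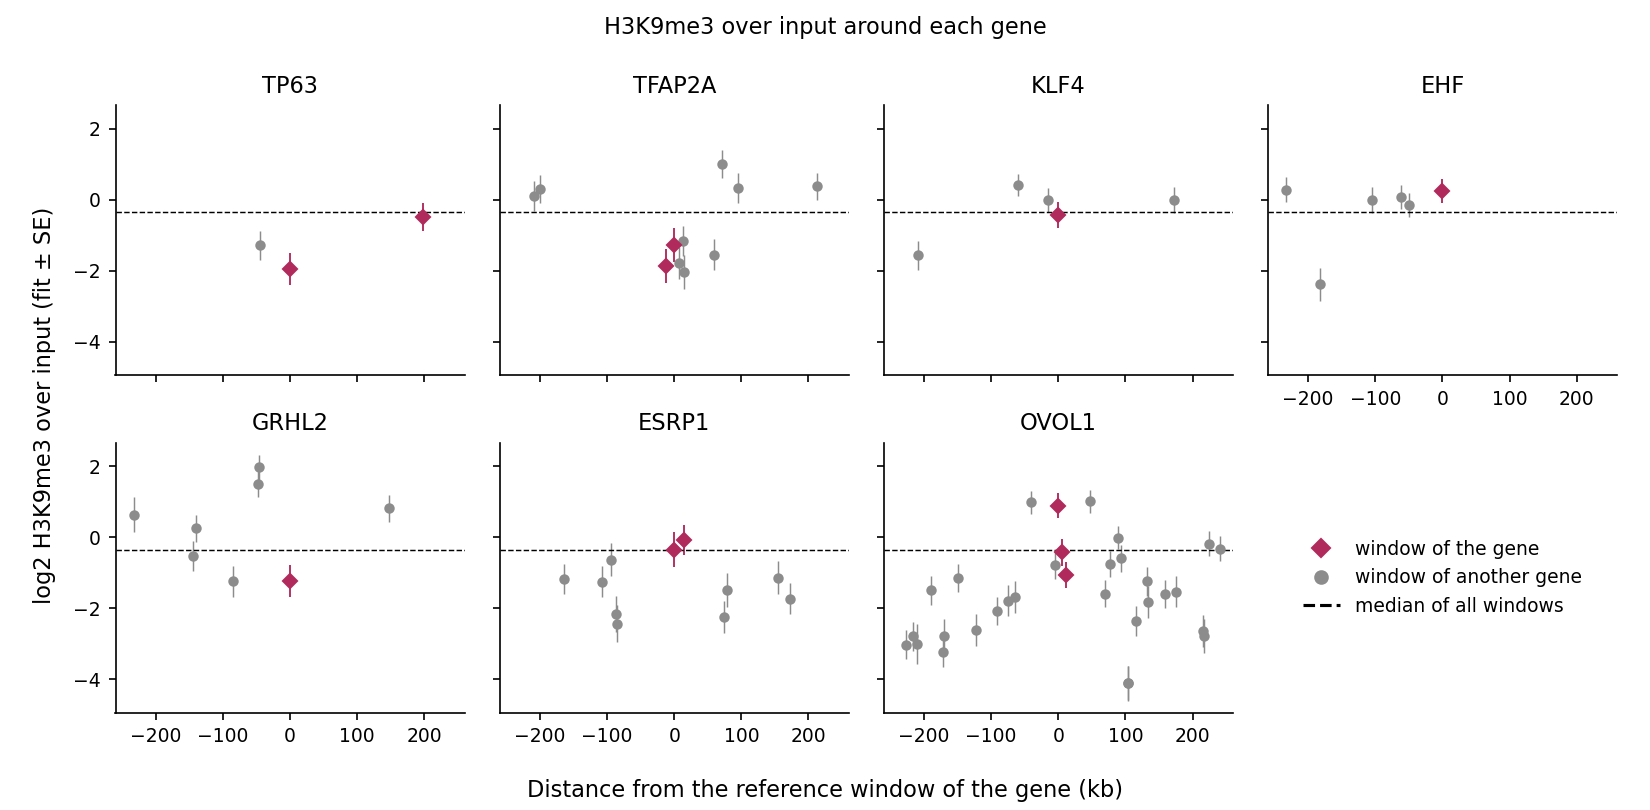
Log2 of H3K9me3 over input (limma fit ± SE, mean of both fractions) against distance for windows listed under the 7 gene names (diamonds) and under other names (grey) within 250 kb. Distance runs along the chromosome from the start of the window with the lower coordinate, or for TFAP2A from the own-strand window. The upstream OVOL1 diamond at 0.89 stands above most of its neighbours, and the GRHL2 diamond at -1.24 lies below the enriched pair near -46 kb.

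Related genes were described by their list counts in the mean of both fractions. Of 19 windows of genes from the same families, 2 were enriched and 7 lower (median -0.57). The enriched ones were SOX3 (2.16 ± 0.32) and SOX1 (1.94 ± 0.38), neural relatives of SOX2, and the lower ones included ESRP2 (-3.04 ± 0.43) and an OVOL2 window (-1.70 ± 0.41). The other OVOL2 window (0.22 ± 0.38) was not called. The window of ESRP2, the partner of ESRP1 in epithelial splicing, had high input: in set 2 it held 37 H3K9me3 and 284 input reads (non-migrated) and 13 and 262 (migrated), where the median window held 22 and 40, and 17 and 40. Its difference from the ESRP1 windows was not tested. ELF5, a neighbour of EHF in sequence and on the chromosome, stood at -0.02 ± 0.36.

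Of 29 windows of other regulators of squamous and epithelial fate, 1 was enriched (3.4%) and 13 lower (44.8%), with a median of -0.85. The enriched one was a RUNX1 window (1.16 ± 0.30), and the lowest calls were an NFE2L2 window on the plus strand, the strand opposite to that oxidative stress regulator (-3.59 ± 0.43), HES1, a Notch effector (-3.47 ± 0.52), and ID1, an inhibitor of helix-loop-helix factors (-2.97 ± 0.43).

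Of 35 windows of targets and effectors, 3 were enriched (8.6%) and 15 lower (42.9%), with a median of -0.72. DSC3 (1.29 ± 0.34) and DSG3 (0.96 ± 0.36), the desmosomal cadherins of stratified epithelium, and SPRR1A (0.81 ± 0.33), of the cornified envelope, were enriched. Other genes of stratified epithelium were called lower, among them PERP (-2.08 ± 0.48), KRT15 (-1.80 ± 0.40) and, of the cornified envelope, TGM1 (-0.98 ± 0.39). KRT5, KRT14 and IVL were not called. The simple-epithelial keratin KRT8 was lower at both of its windows (-3.38 ± 0.45 and -2.19 ± 0.40), and so was the Notch ligand JAG2 (-2.22 ± 0.41).

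Of 10 windows of the repressors of epithelial fate, 3 were enriched (30%) and 2 lower (20%), with a median of -0.06. ZEB2 (1.31 ± 0.39, a window on the plus strand), PRRX1 (1.25 ± 0.33) and ZEB1 (1.19 ± 0.40, a window on the minus strand) were enriched, the ZEB windows both opposite to their genes. The other windows of ZEB2 (-0.69 ± 0.47) and ZEB1 (-0.59 ± 0.56) were not called. SNAI1 (-2.39 ± 0.40) and SNAI2 (-1.87 ± 0.45) were lower. No window of these lists was called for a change between the fractions, and the lists were not compared with each other by a test.

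**Figure D5:**
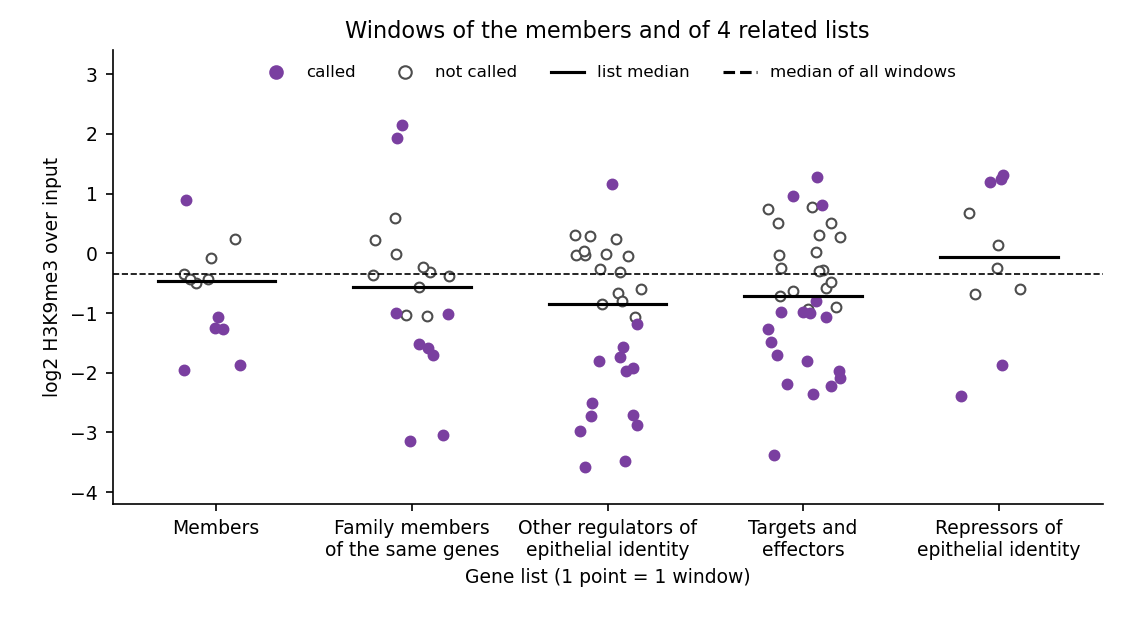
Log2 of H3K9me3 over input, mean of both fractions, for each tested window of the members and of the 4 related lists, filled where called. Horizontal bars are list medians, -0.46 for the members, -0.57, -0.85, -0.72 and -0.06 for the lists from left to right, and the dashed line is the median of all windows at -0.35.

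SOX2 has no window under its own name here, but it is known to lie within the long noncoding gene SOX2-OT, whose 5 windows were looked at after their values were seen. Of these, 1 was called enriched, on the minus strand at hg19 chr3:181253569-181255669. It held 28 H3K9me3 against 26 input reads (non-migrated) and 50 against 32 (migrated) in set 2, and 9 against 11 and 8 against 17 in set 1. The fit gave 1.16 ± 0.32 (adjusted p = 0.0031). The other 4 lay between 0.14 and 0.74 and were not called in the mean of both fractions, and 1 of them, with 0.74 in the mean (adjusted p = 0.054), was called in migrated cells (1.18 ± 0.40, adjusted p = 0.017). The lowest of the 5 lies on the plus strand at hg19 chr3:181427714-181429814. It held 40 against 40 reads (non-migrated) and 13 against 39 (migrated) in set 2, and 2 against 7 and 8 against 18 in set 1. Its fit gave 0.14 ± 0.41 (adjusted p = 0.80). Which of the 5 windows lies nearest the start of SOX2 was not determined. None of these values is assigned to SOX2.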

How the data were processed

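H3K9me3 ChIP and input libraries of migrated and non-migrated SiHa cells were used, 8 libraries in 4 groups with 2 replicates each. Per the submitters' processing notes, Bowtie2 2.2.9, SAMtools 1.3, FastQC 0.11.5 and the build hg19 were used; no window counter is named there. Gel extraction left many duplicates in set 1, and set 2 used beads and another kit, per the labels' protocols. For H3K9me3 of migrated cells in set 1, the replicate number was taken from the title, from which the description differs.

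The deposited values were log2 values per the file headers: each is log2 of the window's reads, shifted by a number fixed for the library, and empty windows stand at log2 of 0.9. Without the shift, 100% of values were whole within 0.01 reads. No source used here states how the shifts (constants) were set.

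The recovered reads plus 0.5 were fitted with limma 3.58.1 (voom weights) in R 4.3.3 after scaling by trimmed means of M values (TMM, 30% of ratios and 5% of levels trimmed). Windows needed the equivalent of 10 reads in at least 2 libraries and 15 in all, which kept 36440. The model held set, ChIP, fraction, set by ChIP and fraction by ChIP, with 2 residual and 30.8 prior degrees of freedom, and was tested on simulated data. Their spread was set in advance and not taken from the data. There, a change between fractions of log2 1.5 was found in 0 of 200 better-covered windows, and one of log2 3 in 92. For the mean of both fractions the numbers found were 100 and 192, and 9.91% and 3.52% of calls were false. The series calls the sets paired, so the set is a block; deviations of same-numbered libraries correlated at r = 0.147 (H3K9me3) and 0.469 (input) across windows, a description only. Intervals of single ratios are exact binomial at 95%.

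Each member window is reported. Neighbours within 250 kb are named where called, at most 3 per member and nearest first. From each list the 3 windows per direction with the smallest p and at least 20 reads are named. ELF5, GCNT2, the lowest neighbour FIBP, the lower CFL1 window and SOX2-OT were added after their values were seen. So were PERP, KRT15, TGM1, KRT5, KRT14, IVL and the other windows of ZEB1, ZEB2 and OVOL2. A named window of the family list is not reported here. The members and lists were chosen with earlier results of these data known. Other scalings, filters, added counts, a fit without weights, a fit without the block, a quasi-Poisson model and leaving out each library were tried.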

Additional observations from a re-analysis of the deposited data

How the results depend on the processing

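Depth limits these results: in set 1 the H3K9me3 libraries held 0 to 6 reads in each member window. The direction and call of the upstream TP63 and the opposite-strand TFAP2A window held in all alternatives that tested them. With the constants of the deposited values in place of TMM, the median of all windows moved from -0.35 to -1.30 in the mean of both fractions and from -0.01 to -0.94 for the change, and it lay at -0.23 with total reads, -0.44 with median-of-ratios and -0.04 with no filter.

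In the mean of both fractions (5741 enriched and 12806 lower windows), the deposited constants gave 340 and 19685, and an added count of 2 gave 8898 enriched. Of the members, 0 were enriched by median-of-ratios scaling, the constants or the quasi-Poisson model, and 8 were lower with the constants, 2 with no filter or a minimum of 20 reads (4 member windows then not tested), and 3 with an added count of 2, no weights or no replicate block. In non-migrated cells (3010 and 8598) enriched windows numbered 142 with the constants, 4707 with no filter and 4891 with an added count of 2, and lower windows 5443 without weights. Member calls there were 1 enriched with an added count of 2, and 1 lower with no filter or no replicate block. In migrated cells (4680 and 10242) the constants gave 35 and 19911 and an added count of 2 gave 7075 enriched. Member calls there were 1 enriched with total reads, no filter, a minimum of 20 or an added count of 2, and 8 lower with the constants but 1 with no filter, a minimum of 20, an added count of 2 or no weights.

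Leaving out 1 library gave 3301 to 9238 enriched and 7744 to 12555 lower windows in the mean (members 0 to 2 and 2 to 5), 583 to 7147 and 1793 to 10932 in non-migrated cells (members 0 to 1 and 0 to 4), and 2238 to 6668 and 4097 to 12504 in migrated cells (members 0 to 1 and 0 to 3). For the change it gave 0 to 804 windows higher and 0 to 977 lower, with 804 and 977 without the migrated and 639 and 737 without the non-migrated H3K9me3 library of set 2 (members 0 to 1 higher, the TFAP2A own-strand window, and 0 to 0 lower). A group is then a single library, assumed to vary like the others.

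Signs reversed for windows that had no call in the values reported, and 1 reversed value was itself called, ESRP1 internal without the non-migrated H3K9me3 library of set 1 (0.93, adjusted p = 0.040). In the mean these were ESRP1 upstream (0.13 with an added count of 2), ESRP1 internal (0.038 with total reads, 0.19 with no filter, 0.12 with a minimum of 20, 0.20 with an added count of 2 and 0.0048 in the quasi-Poisson model) and EHF (-0.69 with the constants). For the change the constants reversed TP63 upstream (-0.49), ESRP1 internal (-0.069), OVOL1 upstream (-0.90) and OVOL1 far (-0.42). A fit without weights reversed EHF (0.26), OVOL1 upstream (-0.28) and OVOL1 middle (0.061), the quasi-Poisson model ESRP1 upstream (0.079) and internal (-0.12), and no replicate block ESRP1 internal (-0.10). With 1 library or 1 whole set left out, the mean ran from -0.90 to 0.21 for TP63 internal, -1.0 to 0.84 and -0.85 to 0.93 for ESRP1 upstream and internal, -0.026 to 0.70 for EHF and -1.15 to 0.35 for OVOL1 middle. The change ran from -0.94 to 0.96 for TP63 internal, -4.16 to 0.54 and -0.74 to 2.90 for ESRP1 upstream and internal, -1.29 to 0.80 for GRHL2, -0.69 to 1.20 for EHF, -1.06 to 0.49 for OVOL1 upstream and -0.49 to 0.62 for OVOL1 middle. The cause was not tested. The quasi-Poisson model gave no usable mean for GRHL2, where both H3K9me3 libraries of set 1 held 0 reads.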
